A study of Homo sapiens with 6 samples.

Results

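Polycomb repressive complex subunits are described here by 10 genes, taken as the rows of the deposited count table with the symbols EZH1, EZH2, SUZ12, EED, JARID2, PHF19, CBX2, CBX7, BMI1 and RING1. All 10 were found among the table's 39396 rows and all 10 passed the filter on low counts. The study grew RKO, a colorectal cancer cell line labelled as wild type, and gave 3 samples olaparib, an inhibitor of PARP enzymes, and 3 others the solvent DMSO. Cells were plated a day before treatment, and RNA was read by bulk sequencing. Dose and length of treatment were not given in the sources used here. Whether replicates came from separate cultures is not stated either, and the spread behind each p-value may therefore be technical.

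Polycomb proteins keep genes silent through marks on histones. Polycomb repressive complex 2 (PRC2) methylates lysine K27 of histone H3 through EZH1 or EZH2, which work only together with EED and SUZ12, while accessory subunits such as PHF19 and JARID2 guide it to chromatin. Polycomb repressive complex 1 (PRC1) holds RING1 or RNF2, which ubiquitinates histone H2A, a PCGF protein such as BMI1, and in its canonical form a CBX protein such as CBX2 or CBX7 that reads the mark of PRC2. EZH2 and BMI1 are abundant in dividing and cancer cells, whereas EZH1 is known from resting tissues.

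Library totals were 28715138 to 42423785 counts, and levels are given as CPM, a gene's count scaled to a common library size after TMM normalisation. The cell type was compared with 12 markers of colorectal epithelium and 8 of embryonic kidney lines. These lists were chosen with earlier results of these data known, so their outcome is not an independent check. Of all 17078 genes tested, 75.7% were called by edgeR at an adjusted p under 0.05, 35.4% higher and 40.3% lower in olaparib. Of the colorectal markers 3 were higher, 2 were lower, 1 was not called and 6 were too low to test. Their sum was 807 to 1090 CPM in olaparib and 243 to 313 CPM in DMSO. Most of that sum was KRT8 and KRT18, at 581 ± 90.2 and 400 ± 64.5 CPM in olaparib and 175 ± 23.3 and 75.3 ± 10.6 CPM in DMSO. CDX1 had no count in any library, and CDX2 had none in olaparib and 24.5 ± 2.0 CPM in DMSO. LGR5, called lower, had 2 counts over the olaparib libraries and 254 over the DMSO libraries. KRT8 and KRT18, keratins of simple epithelia, were present in both groups and 3.32-fold and 5.32-fold higher in olaparib. Of the embryonic kidney markers, 7 of 8 were at 1 CPM or more in every DMSO library and below it in every olaparib library. The share of all genes with this pattern was not counted. IRS4, PAX2, LIN28B, NEFL, NEFM, LHX1 and SALL1 made up these 7. The other, BEX1, had 3 counts over the olaparib libraries and 7 over the DMSO libraries. The summed level of the 8 was 247 to 438 CPM in DMSO and 0.0698 to 0.294 CPM in olaparib. Of 6 fibroblast markers 1 was higher, 3 were lower, 1 was not called and 1 was too low to test, and their sum was 102 to 135 CPM in olaparib and 89.6 to 97.4 in DMSO. Most of that sum was COL1A1, at 113 ± 18.4 and 68.4 ± 3.39 CPM, while LUM was 89.9-fold, COL3A1 12.9-fold and DCN 3.51-fold lower. Of 5 blood cell markers 2, ITGAM and HBA1, were lower and 3 were too low to test. Among the latter, PTPRC had 2, 14 and 4 counts in olaparib and 0, 2 and 0 in DMSO. The sum of the 5 was 0.174 to 0.849 CPM in olaparib and 1.88 to 2.7 CPM in DMSO. A difference in cell source cannot be told apart from treatment in this design, and this holds for every result that follows.

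The PRC2 members were higher or not distinguishable in olaparib, and the PRC1 members were lower or not distinguishable. EZH1 was 1.56-fold, PHF19 1.31-fold, EED 1.28-fold and EZH2 1.23-fold higher. CBX2 was 1.89-fold and CBX7 1.44-fold lower. No call was made for SUZ12, JARID2, BMI1 and RING1. With Benjamini-Hochberg adjustment of edgeR's quasi-likelihood test, 6 of 10 members were thus called, 4 higher and 2 lower, where 75.7% of all 17078 genes tested were called, 35.4% higher and 40.3% lower. The log2 fold change had a median size of 0.33 in the members and of 0.94 in all genes tested, and 47.7% of all genes but none of the members differed by more than 1 on the log2 scale. In 3 members all olaparib libraries lay above all DMSO libraries and in 2 all lay below, where the groups did not overlap for 79.4% of all genes, 37.3% above and 42% below. In bulk RNA, fewer cells of a type and less RNA per cell cannot be told apart. In sum over the 10 genes the level was 554 to 608 CPM in olaparib and 549 to 592 CPM in DMSO, and these ranges overlap.

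**Figure D1:**
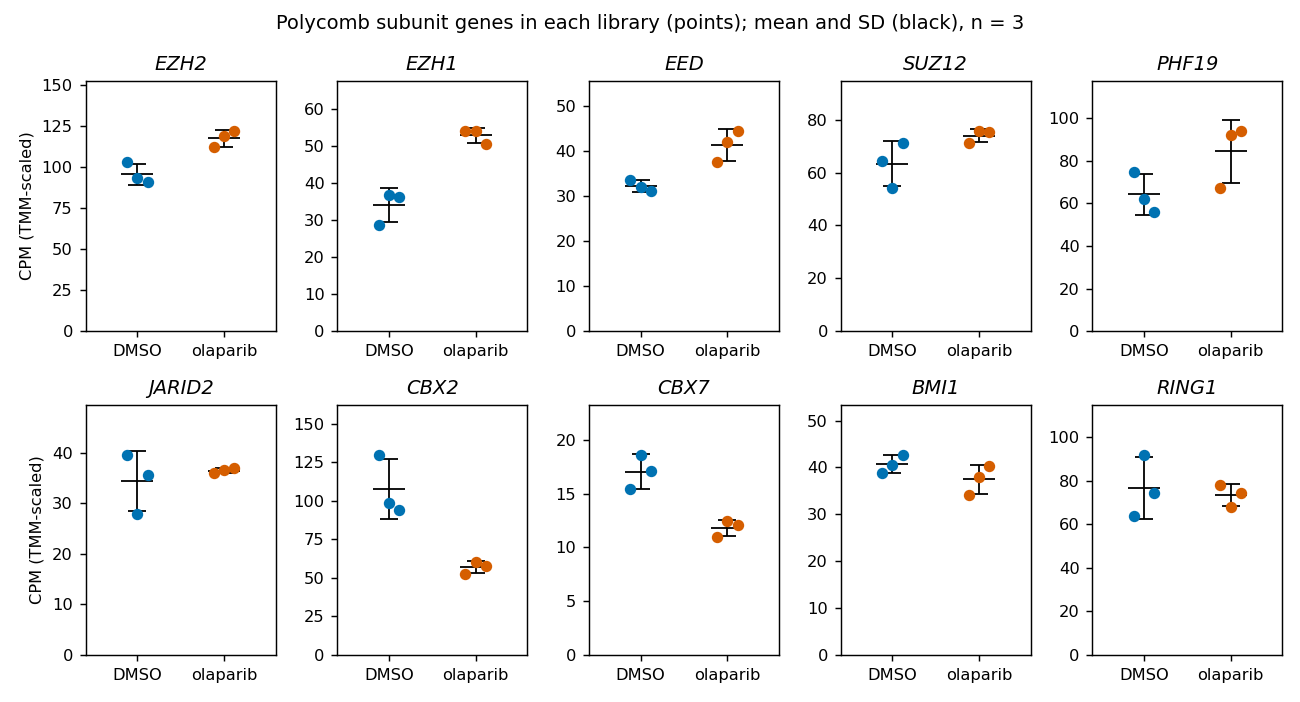
Level of each of the 10 genes in CPM (vertical axis, from 0) in the 3 DMSO and 3 olaparib libraries (points), with mean and SD. EZH1, EZH2 and EED have every olaparib point above every DMSO point, CBX2 and CBX7 have every olaparib point below, and the other 5 overlap.

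Of the PRC2 enzymes, EZH2 stood at 112, 119 and 122 CPM in olaparib replicates 1 to 3 and at 103, 93.2 and 90.7 CPM in the DMSO replicates. Every olaparib library lay above every DMSO library. The log2 fold change was 0.30 ± 0.10 (SE), with adjusted p = 0.0128 by edgeR. It was no longer called without olaparib replicate 2 (adjusted p = 0.052) or without DMSO replicate 3 (adjusted p = 0.0506).

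EZH1, the paralog that can replace EZH2, held 54.1, 54.1 and 50.6 CPM in olaparib and 28.7, 36.9 and 36.4 CPM in DMSO. The groups did not overlap, and the lowest value was that of DMSO replicate 1. This was the largest rise among the members, at 0.64 ± 0.12 on the log2 scale (edgeR adjusted p = 0.000328).

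In counts, EZH2 exceeded EZH1 by 2.08, 2.2 and 2.42 times in olaparib and by 3.59, 2.52 and 2.49 times in DMSO. This ratio does not depend on library scaling. It was lower in every olaparib library than in every DMSO library, by 0.34 on the log2 scale (SD 0.11 and 0.30, n = 3 each). DMSO replicate 1 stood apart and the other 5 libraries lay close together: without it the change was -0.17. The exact permutation test gave p = 0.1 (2-sided), the smallest that 3 against 3 can give, and 0.133 after adjustment over the 4 ratios examined. Per length of exon, EZH2 was at 26.1 ± 1.11 RPKM in olaparib and 21.1 ± 1.45 in DMSO, EZH1 at 7.58 ± 0.291 and 4.86 ± 0.654 (SD, n = 3), so that EZH2 was the more abundant of the pair in all 6 libraries. RPKM is the CPM divided by the length of all annotated exons in kilobases.

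For the 2 enzymes and for SUZ12 and CBX7, the sequence just before the transcription start is shown, since 2 of these genes were higher, 1 was lower and 1 was not called. They come from RefSeq's promoter table of GRCh38.p14, in which 9 of 10 members were matched by symbol, all but CBX2. Bases in exons of GENCODE release 29 were left off, so the windows of EZH2 and EZH1 end 30 and 9 bases before the RefSeq start. They lie at chr7:148884322.0-148884521.0 (minus strand) for EZH2, chr17:42745050.0-42745249.0 (minus strand) for EZH1, chr17:31936807.0-31937006.0 (plus strand) for SUZ12 and chr22:39152681.0-39152880.0 (minus strand) for CBX7. Capitals mark 3 kinds of word on either strand: the GC box GGGCGG, the CCAAT box, and the words TTTCCCGC, TTTGGCGC and TTTCGCGC, forms of the site of E2F, a factor of the cell cycle.
EZH2: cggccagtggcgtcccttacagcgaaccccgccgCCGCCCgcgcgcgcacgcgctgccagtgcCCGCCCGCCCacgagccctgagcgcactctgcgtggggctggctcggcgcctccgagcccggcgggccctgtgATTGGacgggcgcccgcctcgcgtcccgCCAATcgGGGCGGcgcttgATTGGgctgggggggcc
EZH1: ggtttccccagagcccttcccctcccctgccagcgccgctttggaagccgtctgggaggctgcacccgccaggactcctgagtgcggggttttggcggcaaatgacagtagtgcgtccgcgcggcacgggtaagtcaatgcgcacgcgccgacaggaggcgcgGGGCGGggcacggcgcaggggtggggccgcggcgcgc
SUZ12: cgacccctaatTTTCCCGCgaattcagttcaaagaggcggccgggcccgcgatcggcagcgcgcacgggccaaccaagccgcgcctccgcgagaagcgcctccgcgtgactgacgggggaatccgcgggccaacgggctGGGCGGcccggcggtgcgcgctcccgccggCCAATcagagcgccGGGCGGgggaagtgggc
CBX7: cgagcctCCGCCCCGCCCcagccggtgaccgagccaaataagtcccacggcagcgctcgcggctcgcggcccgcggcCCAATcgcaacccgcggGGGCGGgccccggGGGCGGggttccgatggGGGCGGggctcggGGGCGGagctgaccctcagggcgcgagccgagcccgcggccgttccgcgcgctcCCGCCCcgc

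Over the 250 bases before the start, EZH2 held 4 GC boxes and 4 CCAAT boxes, EZH1 1 and none, SUZ12 2 and 1, and CBX7 8 and 1, with overlapping matches counted. SUZ12 was the only one of the 9 members with an E2F word, a single TTTCCCGC. Of 34943 promoters of the same length, 42.5% held a GC box, 32.0% a CCAAT box and 2.31% any of the 3 E2F words. A match is only a match of letters.

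EED, which binds the methylated histone tail and stimulates the enzyme, was at 37.6, 42.0 and 44.5 CPM in olaparib and at 33.7, 32.1 and 31.1 CPM in DMSO. The olaparib libraries were all above the DMSO libraries (log2 fold change 0.36 ± 0.11, edgeR adjusted p = 0.00901).

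SUZ12, the scaffold of PRC2, was at 71.1, 75.7 and 75.2 CPM in olaparib and at 64.5, 54.2 and 71.1 CPM in DMSO. DMSO replicate 3 reached the lowest olaparib library. SUZ12 was not called (log2 fold change 0.23, 95% interval -0.02 to 0.47, edgeR adjusted p = 0.0869), and without DMSO replicate 3 it was (0.30, adjusted p = 0.0335). SUZ12, EZH2 and RBBP4 have pseudogene copies, and reads shared with such copies cannot be separated in a table of counts.

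Summed over EZH1, EZH2, EED and SUZ12, the level came to 50.9 ± 1.77 RPKM in olaparib and 40.3 ± 1.43 RPKM in DMSO (SD, n = 3). This sum leaves out the core subunits RBBP4 and RBBP7, which were both lower in olaparib. RBBP4 was at 174 ± 17.5 CPM in olaparib against 250 ± 15.7 in DMSO, and RBBP7 at 267 ± 11.9 against 372 ± 26.6. Within the sum of the 4 genes the proportions were close between groups. EZH2 made up 50.9 to 51.9% of it in olaparib and 49.4 to 54.9% in DMSO, EED 11.0 to 12.2% and 10.9 to 11.8%, and EZH1 13.9 to 15.9% and 9.89 to 13.6%. EZH1 alone had ranges that did not overlap. With the longest coding transcript as length, the EED share was 19.4 to 21.3% in olaparib and 19.4 to 20.7% in DMSO.

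PHF19, a Polycomb-like protein that reads methylated histone H3 and recruits PRC2, was at 67.4, 92.0 and 94.0 CPM in olaparib and at 74.9, 62.1 and 55.9 CPM in DMSO. Olaparib replicate 1 lay below DMSO replicate 1, so the groups overlap although the gene was called (log2 fold change 0.39 ± 0.15, edgeR adjusted p = 0.0265). PHF19 missed the threshold when olaparib replicate 2 or 3 was left out (adjusted p = 0.0987 and 0.0862), when DMSO replicate 2 or 3 was left out (0.078 and 0.135) and with library size alone (0.0611).

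JARID2, which brings PRC2 to sites marked by PRC1, was at 36.0, 36.5 and 36.9 CPM in olaparib and at 39.6, 27.9 and 35.5 CPM in DMSO. The olaparib values lay inside the DMSO range, and the 95% interval of the log2 fold change, -0.20 to 0.37, bounds the difference (0.08, edgeR adjusted p = 0.57). The count ratio of JARID2 to PHF19, which belong to alternative forms of PRC2, was 0.534, 0.397 and 0.393 in olaparib and 0.529, 0.449 and 0.636 in DMSO. These ranges overlap (change -0.29 on the log2 scale, exact permutation p = 0.3, adjusted 0.3, 2-sided).

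The remaining PRC2 genes, a list of 8, gave 1 higher, 4 lower and 2 not called, and 1 was too low to test. Their median log2 fold change was -0.41. The share called of those tested was 71.4%, where 75.7% of all genes tested were called. PHF1, a paralog of PHF19, was 1.98-fold higher, at 62.6 ± 2.49 against 31.6 ± 4.78 CPM (edgeR adjusted p = 1.06e-05). The histone-binding core subunits RBBP4 and RBBP7, shared with other chromatin complexes, were 1.44-fold and 1.39-fold lower. EPOP and LCOR, subunits of the form that holds PHF19, were 1.35-fold and 1.33-fold lower. MTF2, the other paralog of PHF19, and AEBP2, the partner of JARID2, were not called, with log2 fold changes of -0.21 (95% interval -0.43 to 0.01) and -0.03 (-0.27 to 0.21).

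EZHIP, an inhibitor of PRC2 known from the germline and some tumours, had no count in the olaparib libraries and 36, 10 and 8 counts in DMSO. With 3 counts over the group as the floor, EZHIP was at least 13.6-fold lower in olaparib, and no DMSO library reached 1 CPM. Such floors and counting intervals cover counting error only.

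Among the Polycomb-like paralogs the summed level was 38.7 ± 1.56 RPKM in olaparib and 28.4 ± 1.3 in DMSO. PHF1 took 42.7 to 49.2% of it in olaparib and 26.1 to 35.9% in DMSO, and MTF2 21.8 to 23.6% against 31.9 to 38.3%. PHF19 took 27.1 to 35.5% and 30.7 to 37.6%, which overlap.

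**Figure D2:**
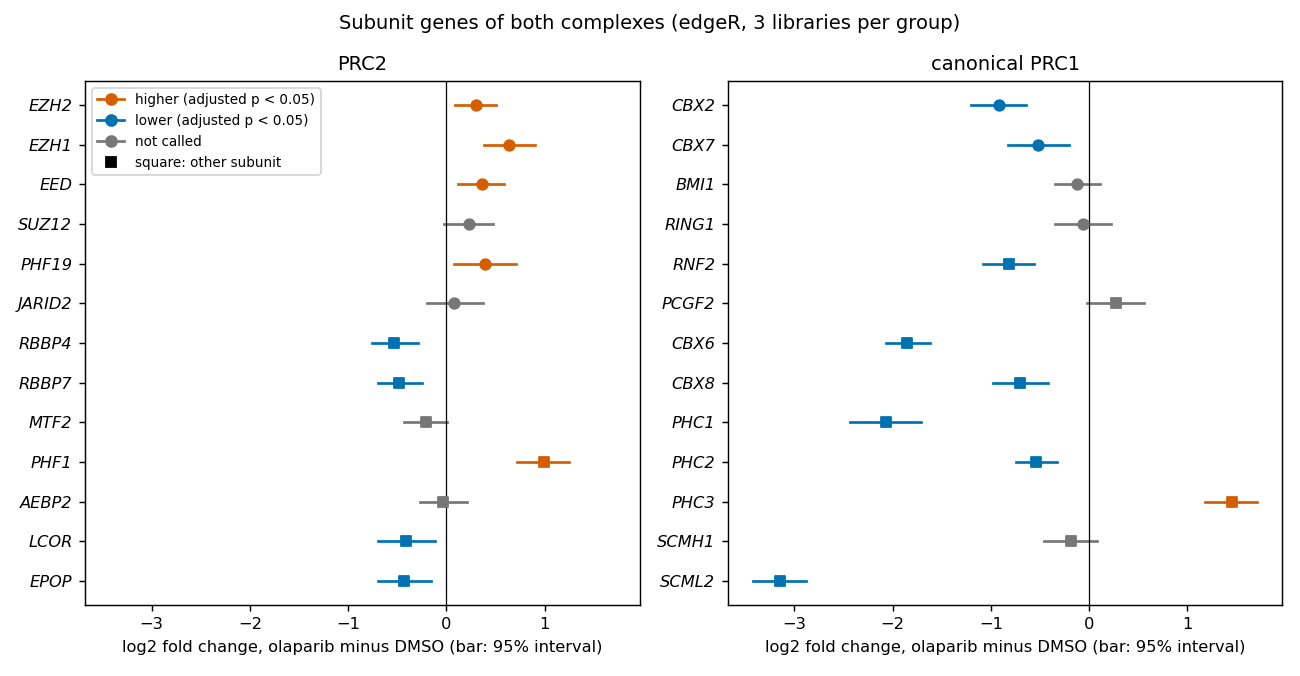
Log2 fold change, olaparib minus DMSO (horizontal axis), of the tested PRC2 genes (left) and canonical PRC1 genes (right), with 95% intervals; circles are the 10 members, squares the other subunits. SCML2 lies farthest to the left at -3.15 and PHC3 farthest to the right at 1.45.

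In PRC1, CBX2, which compacts chromatin and reads methylated histone H3, was at 52.6, 60.6 and 57.7 CPM in olaparib and at 130, 98.6 and 94.4 CPM in DMSO. The groups were far apart, with DMSO replicate 1 the highest. The log2 fold change of -0.92 ± 0.13 was the largest among the members (edgeR adjusted p = 3.57e-05), and it ran from -1.02 to -0.77 when each library was left out in turn.

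CBX7, the CBX protein known from stem cells and from repression of the CDKN2A locus, was the least abundant member on the RPKM scale in both groups. It held 11.0, 12.4 and 12.1 CPM in olaparib and 15.4, 18.6 and 17.1 CPM in DMSO, with no overlap. The log2 fold change was -0.52 ± 0.14 (edgeR adjusted p = 0.00512). An antisense gene, AL031846.2, shares 1338 exon bases with CBX7; it is not a row of the table, and reads from the pair cannot be told apart if strand was not used.

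In counts CBX2 exceeded CBX7 by 4.8, 4.87 and 4.77 times in olaparib and by 8.42, 5.31 and 5.53 times in DMSO. All olaparib ratios were below all DMSO ratios (change -0.38 on the log2 scale, exact permutation p = 0.1, adjusted 0.133, 2-sided). Without DMSO replicate 1 the change was -0.17.

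Of the other canonical CBX genes, CBX6 was at 326 ± 16.6 CPM in DMSO and 90.6 ± 6.27 CPM in olaparib, a 3.60-fold difference (edgeR adjusted p = 1.34e-08). CBX8 was 1.62-fold lower, at 16.8 ± 1.68 against 27.2 ± 2.12 CPM. The summed level of CBX2, CBX6, CBX7 and CBX8 was 26.9 ± 1.05 RPKM in olaparib and 68.3 ± 5.28 RPKM in DMSO, and the olaparib sum was 39.4% of the DMSO sum.

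CBX6 was the most abundant of these 4 genes in both groups, at 40.6 ± 2.07 RPKM in DMSO. In olaparib CBX6 was at 11.3 ± 0.781 RPKM and CBX2 at 10 ± 0.709 RPKM. CBX6 lay above CBX2 within each olaparib library (10.8 and 9.25, 10.9 and 10.6, 12.2 and 10.1 RPKM in replicates 1 to 3). CBX2 held 35.7 to 39.7% of the sum of the 4 in olaparib and 25.3 to 30.7% in DMSO, and CBX6 held 40.6 to 43.5% and 57.1 to 62.1%. CBX7 held 5.67 to 6.22% in olaparib and 2.78 to 3.84% in DMSO. With the longest coding transcript as length, the CBX7 share was 8.14 to 8.88% in olaparib and 3.97 to 5.46% in DMSO.

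CBX2 and CBX8 lie next to each other on chromosome 17 (hg38), at 79778132 to 79787983 and 79792132 to 79801683. Around CBX2, 162 protein-coding genes within 5 Mb were tested, CBX8 among them, and had a median log2 fold change of -0.49, and their middle 50% ran from -1.17 to 0.66.

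BMI1, the PCGF protein first found in lymphoma and known for its role in stem cell renewal, was at 34.1, 38.0 and 40.3 CPM in olaparib and at 38.9, 40.5 and 42.7 CPM in DMSO. The groups overlap and BMI1 was not called (log2 fold change -0.12, 95% interval -0.35 to 0.11, edgeR adjusted p = 0.32). The readthrough gene COMMD3-BMI1, which shares 1000 exon bases with BMI1, was listed at 0 in every library.

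PCGF2, the closest paralog of BMI1, was at 20.2 ± 2.14 and 16.8 ± 1.07 CPM and was not called (log2 fold change 0.27, 95% interval -0.02 to 0.56). BMI1 held 19.3 to 23.2% of the summed PCGF level in olaparib and 19.1 to 20.7% in DMSO. PCGF6, the subunit of a germline-gene repressing form, was 2.16-fold lower and held 12.8 to 13.5% of that sum in olaparib and 23.7 to 26.0% in DMSO. PCGF5 took 20.5 to 22.8% in olaparib and 12.4 to 14.0% in DMSO.

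RING1, an E3 ligase of PRC1, was at 77.9, 67.8 and 74.4 CPM in olaparib and at 64.0, 92.0 and 74.4 CPM in DMSO. DMSO replicates 1 and 2 enclosed all olaparib values, and RING1 was not called (log2 fold change -0.06, 95% interval -0.35 to 0.22, edgeR adjusted p = 0.664). Its sign, like that of JARID2, turned without DMSO replicate 2 (0.07 for RING1 and -0.06 for JARID2).

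RNF2, the other ligase, was lower, at 22.8 ± 2.66 against 40.3 ± 2.21 CPM (1.77-fold, edgeR adjusted p = 4.59e-05). The count ratio of RING1 to RNF2 was 3.02, 3.1 and 3.59 in olaparib and 1.6, 2.4 and 1.74 in DMSO, higher in every olaparib library by 0.77 on the log2 scale (exact permutation p = 0.1, adjusted 0.133, 2-sided). RING1 was the most abundant of the 10 members per length of exon in both groups, at 40.4 ± 2.82 and 42.2 ± 7.8 RPKM, and EZH2 came next. In olaparib their order turned when the longest coding transcript was used as the length.

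The polyhomeotic genes, whose products link PRC1 complexes into chains, differed in both directions. PHC1 was 4.21-fold lower, at 9.11 ± 1.44 against 38.3 ± 6.77 CPM, and PHC2 was 1.45-fold lower, while PHC3 was 2.73-fold higher, at 143 ± 2.74 against 52.6 ± 8.48 CPM. PHC3 made up 31.8 to 32.4% of the PHC sum in olaparib and 7.65 to 10.9% in DMSO, and PHC2 was the most abundant of the 3 in both. SCML2, of the Scm family, was 8.88-fold lower (8.31 ± 0.767 against 73.8 ± 5.92 CPM, edgeR adjusted p = 8.24e-10). Of its paralog SCMH1 no call was made (-0.19, 95% interval -0.46 to 0.08).

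Over 9 canonical PRC1 genes outside the members, 6 were lower, 1 was higher and 2 were not called, with a median log2 fold change of -0.70, where the median of all genes tested was -0.09. With the 4 PRC1 members the counts were 8 lower and 1 higher of 13, and over the 13 PRC2 genes tested 4 were lower and 5 higher, where 40.3% of all genes tested were lower and 35.4% higher. In each complex 9 of 13 were called, a share below the 75.7% of all genes.

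**Figure D3:**
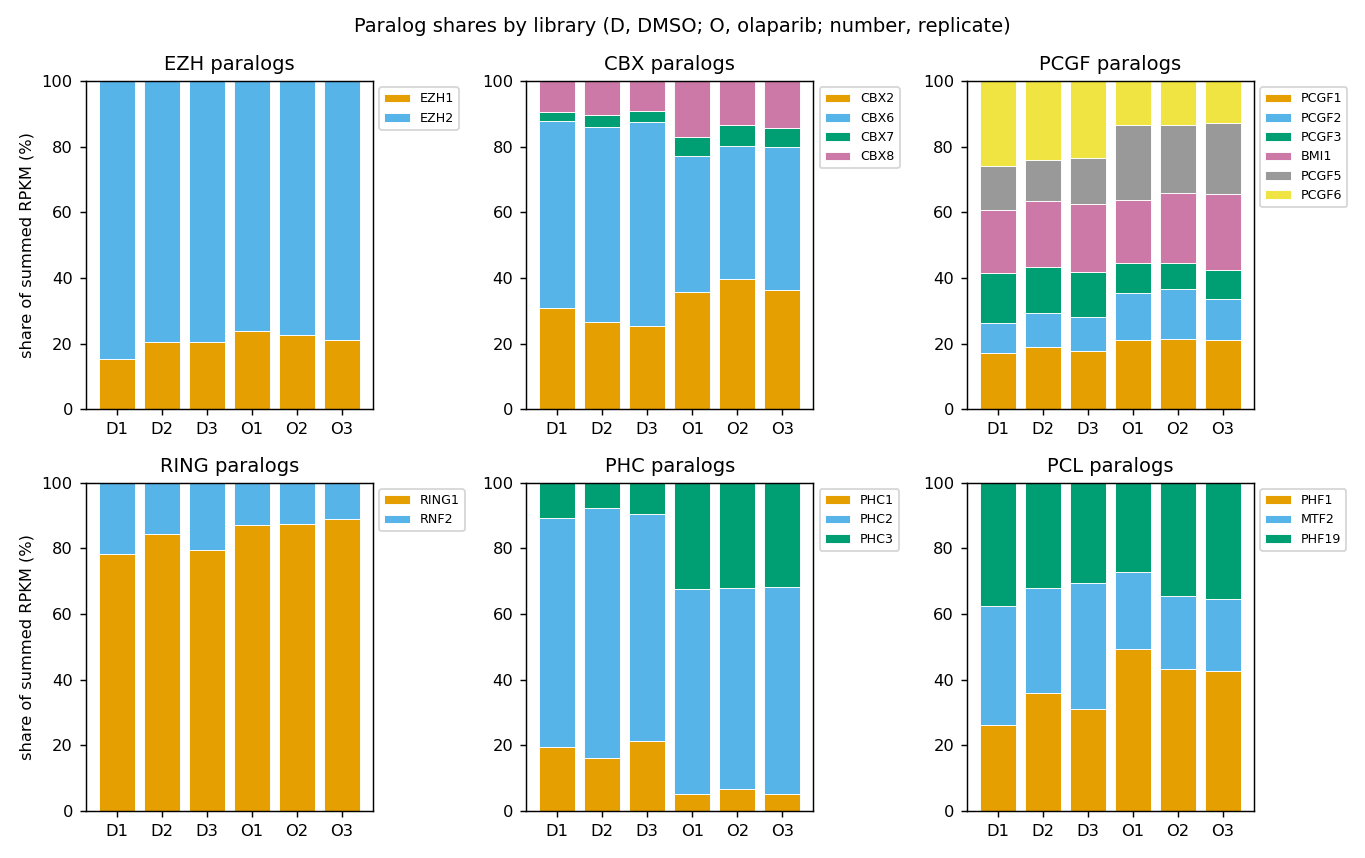
Share of each paralog in the summed RPKM of its family (vertical axis, 0 to 100%) in each DMSO (D) and olaparib (O) library. EZH2, RING1 and PHC2 lead their families in all 6 libraries, and the PHC3 share is 31.8 to 32.4% in olaparib against 7.65 to 10.9% in DMSO.

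Variant PRC1 lacks the CBX proteins of canonical PRC1 and holds RYBP or YAF2. Of 18 such genes 12 were lower, 3 higher and 3 not called (median log2 fold change -0.51). The share called was 83.3%, where 75.7% of all genes tested were called, 40.3% lower and 35.4% higher. AUTS2, a neuronal subunit of a variant PRC1, was 121-fold lower, at 0.334 ± 0.173 against 40.6 ± 4.2 CPM. BCORL1, a corepressor, was 4.84-fold lower and PCGF3 1.93-fold lower. The 3 that were higher were MGA (2.40-fold), YAF2 (1.42-fold) and PCGF5 (1.41-fold).

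Among 12 genes for removal of Polycomb marks, 5 were higher, 4 lower and 3 not called (median 0.03). The share called, 75%, was near the 75.7% of all genes tested. BAP1, which removes ubiquitin from histone H2A, was 2.60-fold lower, at 106 ± 3.54 against 275 ± 17.3 CPM. Its partner ASXL3 held 1 count over the olaparib libraries, in replicate 3, and 311 in DMSO (count ratio 235, 95% counting interval 41.8 to 9297). ASXL1 and ASXL2, the paralogs of ASXL3, were 1.53-fold and 1.43-fold higher. OGT, a glycosyltransferase that binds this complex, was 2.59-fold higher. Of the demethylases of histone H3, KDM6B was 1.48-fold higher and KDM6A 1.41-fold lower.

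The regions around the members were set beside them. Protein-coding genes within 5 Mb had a median log2 fold change of -0.92 around CBX7 (126 genes), -0.34 around EZH2 (50 genes), -0.09 around EZH1 (172 genes), 0.35 around EED (24 genes) and 0.32 around PHF19 (47 genes). PHF19, at 0.39, was near the median of its region, and EED, at 0.36, was near that within 5 Mb but below the 0.84 of the genes within 2 Mb. EZH1 lay above the middle 50% of its region, which ran from -1.01 to 0.55 (median -0.55 within 2 Mb), and the other 9 members lay within theirs. The part of the region in any of these differences was not tested.

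**Figure D4:**
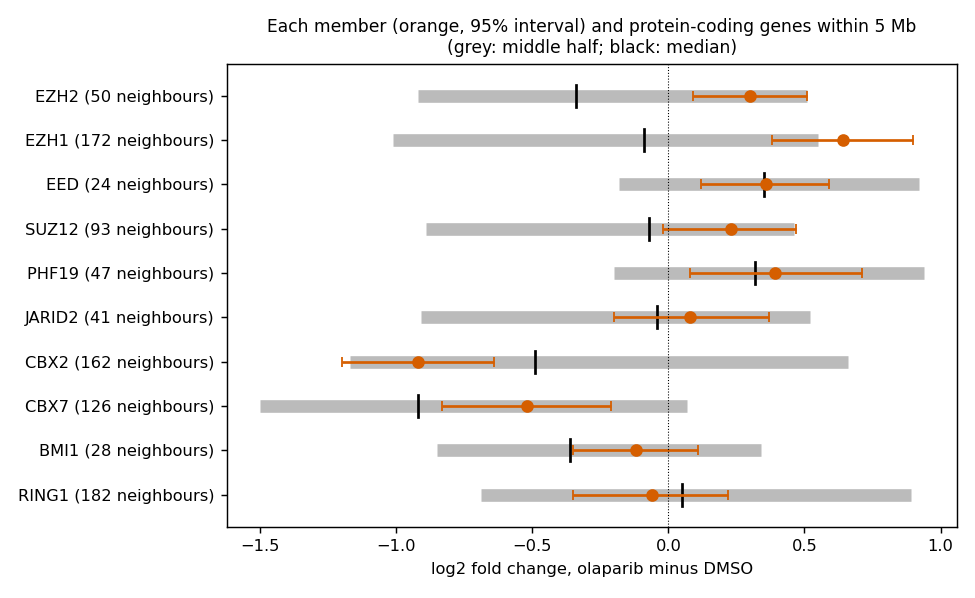
Log2 fold change of each member (orange, with its 95% interval) and of the protein-coding genes tested within 5 Mb (grey, middle 50%; black, median). EZH1 at 0.64 lies to the right of its grey bar, which ends at 0.55.

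Since EZH2 and other members are known to be transcribed more in dividing cells, 23 genes of proliferation and E2F targets were counted in the same fit. Of these 13 were lower, 4 were higher and 6 were not called (median log2 fold change -0.52). Their sum was 3730 to 4090 CPM in olaparib and 4910 to 5310 in DMSO. The share called was 73.9%, near the 75.7% of all genes tested (40.3% lower and 35.4% higher). PCNA, the sliding clamp, was 4.98-fold, MYBL2 3.32-fold and TK1 and RRM2 3.12-fold lower. The 4 that were higher were MCM2 (1.82-fold), the mark of cycling cells MKI67 (1.75-fold), CDC6 (1.22-fold) and MCM6 (1.17-fold). For MKI67 the groups overlap, with olaparib replicate 1 at 351 CPM and DMSO replicate 1 at 366 CPM. The part of proliferation in the level of EZH2, EED or CBX2 was not tested.

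Known targets of Polycomb silencing were counted in a list of 30, made of developmental regulators and the CDKN2 genes. Of the 24 tested, 15 were lower, 4 higher and 5 not called in olaparib (median log2 fold change -1.46, also with genes without a count set at their bound). Among the 24, 6 had all of their counts in DMSO and passed the low-count filter through those libraries alone. These 6 could not have come out higher, so their calls do not show a direction for the list. NKX2-1 and NKX2-2, with 15 and 2 olaparib counts, were close to this. The median was not computed without such genes. The share called of the 24 was 79.2%, where 75.7% of all genes tested were called, 40.3% lower and 35.4% higher. Without a count in any olaparib library were 12 of the 30, and 2 of these, TBX5 and TBXT, had none in DMSO either. At 1 CPM or more in every DMSO library and below it in every olaparib library were 9, and none was the reverse. The share of all genes with this pattern was not counted, so these numbers have no baseline here.

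POU4F1, a factor of sensory neurons, had a level of 78.4 ± 4.66 CPM in the DMSO libraries, at least 2305-fold above olaparib, where it had no count. HAND1 and PAX3, regulators of heart and of neural crest, were at least 596-fold and 544-fold lower. On the other side, CDKN2B, an inhibitor of CDK4 and CDK6, was 4.30-fold higher, at 123 ± 5.6 against 28.5 ± 1.83 CPM (edgeR adjusted p = 3.67e-09), and GATA4, IRX3 and PAX6 were 2.92-fold, 1.87-fold and 1.63-fold higher. CDKN2A, the neighbour of CDKN2B and a known target of CBX7 and BMI1, was at 333 ± 9.07 and 317 ± 44.5 CPM and was not called (log2 fold change 0.07, 95% interval -0.19 to 0.33, edgeR adjusted p = 0.598). Histone marks and Polycomb binding were not analysed here.

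**Figure D5:**
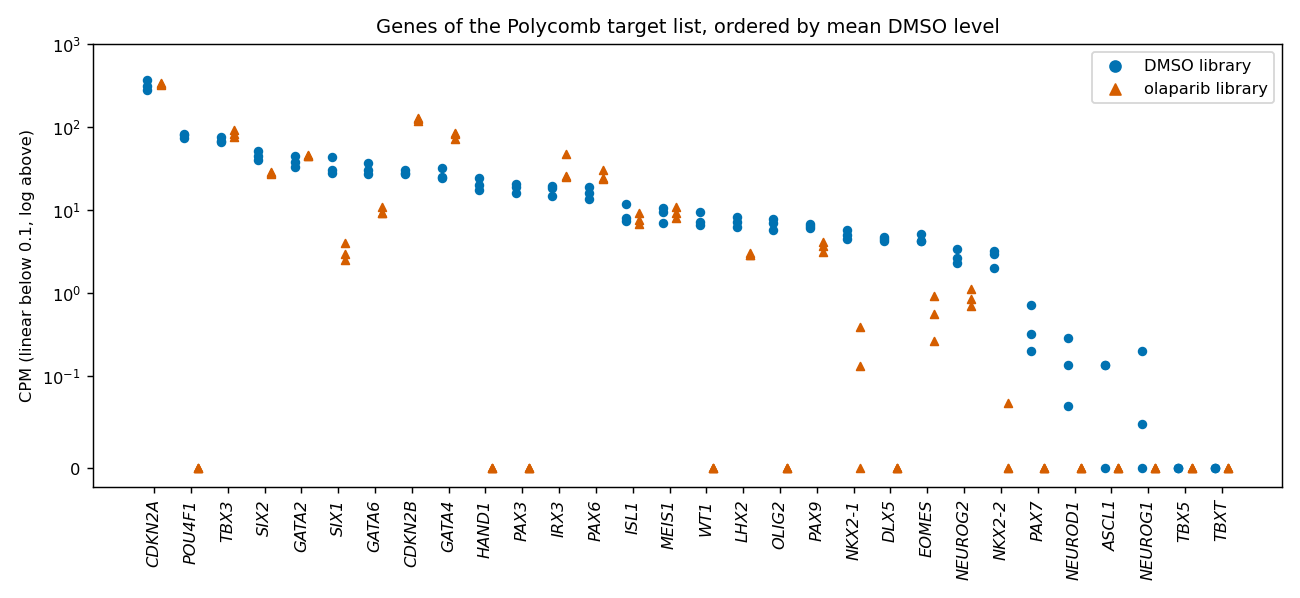
CPM (vertical axis, linear below 0.1 and log above) of the 30 listed target genes in the DMSO (circles) and olaparib (triangles) libraries, ordered by DMSO mean. The triangles at 0 belong to the 12 genes without an olaparib count and to some libraries of NKX2-1 and NKX2-2, and CDKN2B and GATA4 stand higher in olaparib.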

How the data were processed

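RNA sequencing of 3 olaparib and 3 DMSO libraries of RKO was used. Reads were handled with fastp and STAR on hg38, per the submitters' processing notes. The program that counted reads, its use of strand and its gene models were not given in the sources used here. Raw read counts per gene symbol were deposited by the authors, 28715138 to 42423785 per library. More genes held 2 counts than 1 in every library, and if both reads of a pair were counted, counting intervals are too narrow. Pairs of libraries within groups differed by more than sampling noise (chi-square per degree of freedom 4.74 to 68.6 over genes with at least 20 counts), so each library counted as 1 replicate. Groups came from the sample titles.

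The test was that of edgeR 4.0.16 under R 4.3.3 (filterByExpr, TMM, robust quasi-likelihood, treatment as the only term), with Benjamini-Hochberg adjustment over 17078 genes and a threshold of 0.05. The fit was tested on simulated data in which only a small share of genes differed. That test does not cover a comparison in which 75.7% of genes were called. Standard errors and 95% intervals were derived from the F statistic. Exon lengths and positions came from GENCODE release 29, matched for 99.7% of rows. Alternatives were RLE factors, library size alone, other filters, DESeq2 1.42.0, limma-voom 3.58.1, a replicate block, counts divided by 2 and the loss of each library. The longest coding transcript as length was added after seeing the data.

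The members and all gene lists were chosen with earlier results of these data known. Named were all members, the other PRC2 and canonical PRC1 genes, and up to 4 genes of each other list with the smallest adjusted p, with CDKN2A and CDKN2B. MGA, YAF2, PCGF5, ASXL1, ASXL2, KDM6A, GATA4, IRX3, PAX6, TBX5, TBXT, MCM2, MCM6, CDC6, MKI67, CDX1, IRS4, PAX2, LHX1, BEX1, PTPRC, NKX2-1 and NKX2-2 were named after their values were seen. A subunit gene and a marker gene of the lists are not reported here.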

Additional observations from a re-analysis of the deposited data

How the results depend on the processing

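Direction and call held under every alternative for 45 of the 57 named genes that could be fitted, among them the members EZH1, EED, CBX2, CBX7 and BMI1. The number of members higher was 4, and 2 to 4 when each library was left out (2 without olaparib replicate 2); the number lower stayed at 2. Over these omissions the log2 fold change was 0.251 to 0.348 for EZH2, 0.113 to 0.303 for SUZ12, 0.286 to 0.53 for PHF19, -0.057 to 0.186 for JARID2, -0.192 to 0.072 for RING1, -0.085 to 0.031 for AEBP2 and -0.034 to 0.169 for CDKN2A. With library size alone PHF19 gave 0.328 and missed the threshold; that scaling moved the median of all genes by -0.068. Fibroblast markers higher numbered 1 to 2 and blood markers lower 1 to 2 over the omissions. With no filter beyond 1 count, 2 proliferation genes and 1 blood marker were higher and 1 blood marker was lower; 1 blood marker was also lower with the filter of 1 CPM, with DESeq2 and with counts divided by 2. The cause was not tested in any of these. MTF2, LCOR, EPOP, SCMH1 and HBA1 crossed the threshold in some settings without a change of sign. Deviations of same-numbered libraries gave r = -0.0901, -0.0423 and -0.00173, and those of differently numbered libraries gave -0.0632 to 0.0916. With so few libraries per group, these values cannot show whether same-numbered libraries were handled together. With the replicate block 4 members were higher and 2 lower, as without it, and 5797 genes were higher and 6629 lower. Within 2 Mb the median of the neighbours was -0.546 for EZH1, -0.319 for SUZ12 and 0.841 for EED. Within 10 Mb of JARID2 the median of its neighbours changed sign (0.012). Depth limits CBX7 most among the members: its 314 counts in olaparib replicate 1 were the lowest of any member in any library.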
